A study of Mus musculus with 6 samples.

Results

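The syndecans and the glypicans are the 2 families of proteoglycans that carry heparan sulphate on the cell surface. The 9 genes described here, Sdc1 to Sdc4, Gpc1 to Gpc4 and Gpc6, were picked by symbol from the 24421 gene rows of a count table, and 8 of the 9 held enough counts to be tested among 13548 genes. Sdc2 was put on the list because it rose in the comparison reported here, so its values are a description with no test. The other 8 were listed by family name, with earlier results of these data known.

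RNA sequencing was carried out on LK cells, bone marrow cells without lineage markers that carry the receptor c-Kit, which are mostly myeloid, erythroid and megakaryocyte progenitors with some stem cells. Groups were 3 libraries of wild type C57BL/6 mice and 3 of C57BL/6 littermates with ASXL1-MT-KI, a knock-in of mutant ASXL1 (here also called the knock-in), all from animals aged 8 to 12 weeks. ASXL1 is a chromatin regulator recurrently mutated in myeloid malignancy. The comparison asks what mutant ASXL1 does to gene expression in stem and progenitor cells. The sources used here do not give the promoter or the cells in which the knock-in allele is active, and do not say whether a library was 1 animal or a pool. The libraries of a group came from independent experiments, per the series design.

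Libraries held 40462168 to 47579480 counts. Asxl1 stood at 165 to 176 CPM (counts scaled to a common library size with TMM factors) in wild type and at 310 to 327 CPM with the knock-in. Kit, the gene of the receptor used in the sort, averaged 406 and 383 CPM. Of the lineage genes, Cd3g was at 0 in all libraries and Cd3e averaged 0.0218 CPM in wild type, while the summed lineage markers were at 736 to 750 and 779 to 846 CPM. That sum includes Ptprc, the CD45 gene, which progenitors express as well. Of the 7 tested lineage genes 1 was called higher and 1 lower, beside 8.29% and 7.69% of all tested genes. The part of lineage-positive cells in the sum was not tested. On the second principal component of the 1000 most variable genes, with 14.0% of the variance, number 3 of both groups (-14.9 and -11.7) stood apart from the other 4 libraries (1.81 to 10.5). The results on the members are therefore also given below from numbers 1 and 2 alone where they differ. In bulk libraries, fewer cells of a type and less RNA per cell cannot be told apart.

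Both families are core proteins to which cells attach long heparan sulphate chains. Syndecans cross the membrane, and their short cytoplasmic tails bind PDZ proteins such as syntenin and link to the actin cytoskeleton, whereas glypicans are held in the outer leaflet by a glycosylphosphatidylinositol (GPI) anchor. The chains bind growth factors, morphogens, chemokines and matrix proteins, and so act as co-receptors for FGF, Wnt, BMP and hedgehog ligands. Proteases shed syndecan ectodomains, and lipases such as Notum release glypicans. In bone marrow, syndecan-1 is the plasma cell marker CD138, and heparan sulphate in the niche holds chemokines and cytokines near progenitors.

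Members moved in opposite directions between the genotypes. Sdc2, Sdc3, Gpc1 and Gpc2 were higher in ASXL1-MT-KI cells, Sdc1 and Sdc4 were lower, and Gpc3 and Gpc4 did not pass the test. Sequence is shown for the 4 of these genes that changed past the threshold and have an entry in the RefSeq promoter table (6 of the 9 members have one), so that the promoters of fallers and risers can be read side by side. Each line gives the 250 bases before the RefSeq start on GRCm38.p6, 5′ to 3′ on the strand of the gene. Capitals mark GC boxes (GGGCGG on either strand) and matches to the NF-kB consensus, the binding sequence of the NF-kB factors.

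Sdc4, which fell, chr2:164443189-164443438, minus strand: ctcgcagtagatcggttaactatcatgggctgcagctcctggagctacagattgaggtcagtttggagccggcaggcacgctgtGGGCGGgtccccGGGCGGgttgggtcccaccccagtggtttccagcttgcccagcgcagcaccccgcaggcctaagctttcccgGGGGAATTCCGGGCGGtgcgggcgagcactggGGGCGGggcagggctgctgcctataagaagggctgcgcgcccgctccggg
Sdc1, which fell, chr12:8771146-8771395, plus strand: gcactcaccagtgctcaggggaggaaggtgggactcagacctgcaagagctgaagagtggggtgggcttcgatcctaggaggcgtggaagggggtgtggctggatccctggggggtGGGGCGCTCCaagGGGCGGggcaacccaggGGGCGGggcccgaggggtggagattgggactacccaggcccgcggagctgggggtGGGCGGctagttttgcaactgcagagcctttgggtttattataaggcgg
Sdc3, which rose, chr4:130792287-130792536, plus strand: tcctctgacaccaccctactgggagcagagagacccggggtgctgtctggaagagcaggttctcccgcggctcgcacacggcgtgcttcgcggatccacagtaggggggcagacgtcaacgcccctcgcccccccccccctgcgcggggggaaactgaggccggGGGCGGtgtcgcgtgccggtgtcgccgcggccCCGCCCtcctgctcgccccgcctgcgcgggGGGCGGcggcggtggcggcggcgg
Gpc2, which rose, chr5:138279938-138280187, minus strand: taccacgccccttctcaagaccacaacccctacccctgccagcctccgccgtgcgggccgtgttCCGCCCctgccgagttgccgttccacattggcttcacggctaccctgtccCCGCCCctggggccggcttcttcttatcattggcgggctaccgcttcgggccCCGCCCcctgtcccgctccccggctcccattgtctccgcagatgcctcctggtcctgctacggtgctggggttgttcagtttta

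All 4 windows are rich in G and C. Over the 300 bases of the table (250 before and 50 after the start), GC content was 67.7% for Sdc4, 66.3% for Sdc1, 77.7% for Sdc3 and 65.7% for Gpc2, against a median of 52.7% over 32851 promoters. The Sdc3 window holds 44 CG dinucleotides, against a median of 7. Of 10 motifs searched on both strands in the 300 bases, the GC box was found in each of the 6 members with an entry, and in 35.7% of all promoters. It occurs 4 times in Sdc4 and 3 times each in Sdc1, Sdc3 and Gpc2. The NF-kB consensus occurs once in Sdc4, from -82 to -73 before the start, where it overlaps a match to the ETS site (CCGGAA, 14.9% of all promoters). In Sdc1 it occurs once, from -134 to -125, overlapping a CACC box (CCACCC, 31.5% of all promoters). CACC boxes occur 4 times in Sdc1 and once each in Sdc3 and Sdc4. No match to the NF-kB consensus lies in the windows of Sdc3, Gpc2, Gpc3 or Gpc4, and 8.46% of all promoters hold one. The other motifs were the E-box (CANNTG), found in Sdc1 and Gpc2 and in 72.3% of all promoters, the RUNX site (TGTGGT), found in Gpc2 and in 16.8%, the CRE core (TGACG), found in Sdc3 and in 20.8%, and the AP-1 site (TGANTCA, 7.81%), the TATA box (TATAAA, 13.6%) and the GATA site (AGATAA, 11.2%), which no member window held. These matches describe letters in the window only.

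Among the syndecans, Sdc2 was the member with the largest rise. It encodes syndecan-2, a syndecan best known from mesenchymal and endothelial cells, and lies on chromosome 15 from 32920723 to 33034935 (mm10, plus strand, GENCODE M21), with 5 exons. Counts were 178, 142 and 136 in wild type libraries 1 to 3, and 629, 650 and 551 with the knock-in. On the CPM scale the levels were 3.88, 3.10 and 3.35 in wild type and 13.1, 14.4 and 13.3 in ASXL1-MT-KI. The ranges are far apart, and the lowest ASXL1-MT-KI library is above 3 times the highest wild type library. The fitted difference was 3.94-fold (log2 fold change 1.98 ± 0.11, SE), and it ran from 1.91 to 2.08 over all alternative settings.

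Sdc3 also rose. Syndecan-3, known from neurons and muscle, has the longest ectodomain of the family, and its gene lies on chromosome 4 from 130792537 to 130826319. Its CPM values were 2.55, 3.07 and 3.47 in wild type and 5.46, 3.87 and 6.92 in ASXL1-MT-KI. The groups do not overlap, although ASXL1-MT-KI library 2 is close to the wild type libraries. The rise was 1.79-fold (log2 fold change 0.84 ± 0.22, edgeR adjusted p = 0.0296). The call was lost on omitting wild type library 1 or 2 or knock-in library 1 or 3, with an adjusted p of up to 0.120, and held with numbers 1 and 2 only. A pair of antisense genes on the opposite strand, Gm12970 and Gm26716, overlap Sdc3, and reads of the 2 strands cannot be separated here.

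Sdc4 fell furthest. Syndecan-4 is the syndecan of focal adhesions, where it works with integrins and binds protein kinase C alpha, and its gene lies on chromosome 2 from 164424247 to 164443887. It was at 4.36, 2.29 and 4.66 CPM in wild type and 0.479, 0.465 and 1.16 CPM in the knock-in. All ASXL1-MT-KI libraries were below the lowest wild type library, which was number 2, and the values rest on 105 to 200 counts in wild type and 21 to 48 in ASXL1-MT-KI. Sdc4 was 5.43 times lower (log2 fold change -2.44 ± 0.41, edgeR adjusted p = 0.00628), and it passed in every alternative setting, with log2 fold changes of -2.99 to -2.22.

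Sdc1 fell as well. It encodes syndecan-1 and lies on chromosome 12 from 8771323 to 8793715. Levels were even in wild type, at 5.58, 5.63 and 5.40 CPM, and reached 4.19, 3.12 and 3.91 CPM in ASXL1-MT-KI, without overlap. The log2 fold change was -0.57 ± 0.14 (edgeR adjusted p = 0.0231). Without wild type library 1 or 2 or knock-in library 2 the call was lost, with an adjusted p of up to 0.0807.

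Since syndecan-1 marks plasma cells, genes of that cell type were read beside it. Of 12 tested members of the plasma cell and late B cell list 5 were lower (Mzb1, Prdm1, Irf4, Cd79a and Cd28) and 1 was higher (Fkbp11). Of all tested genes 7.69% were called lower and 8.29% higher. The summed level of the list, which is mostly Xbp1 and Jchain, was 224 to 240 CPM in wild type and 215 to 223 CPM in ASXL1-MT-KI. Of its 16 genes only 13 had a row among the counts, and none of these 13 was at 0 in all libraries. Tnfrsf17, the receptor BCMA of plasma cells, averaged 0.0973 and 0.0378 CPM and was not tested. The part of such cells in the Sdc1 result was not tested.

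**Figure D1:**
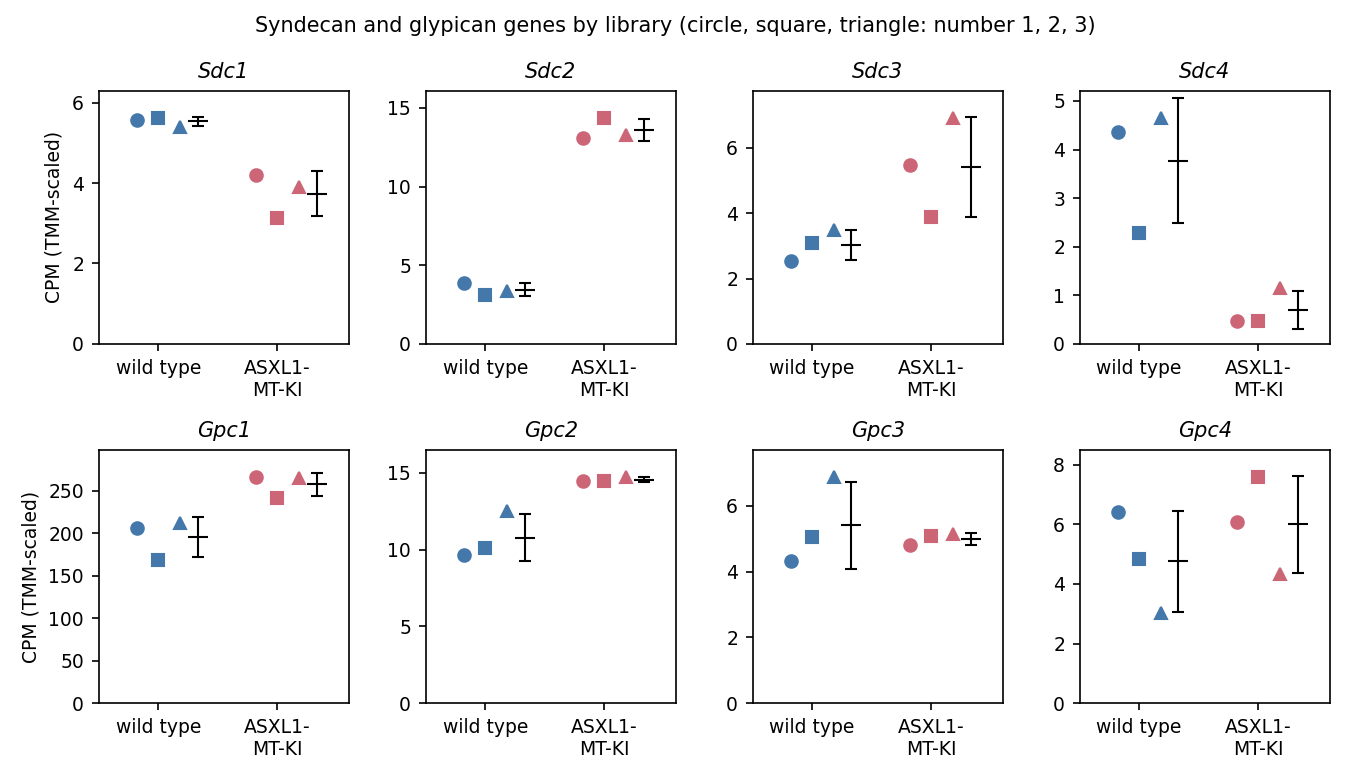
CPM of 8 members in each library (vertical axes start at 0 and differ between panels), for wild type (blue) and ASXL1-MT-KI (red), with circle, square and triangle for libraries 1, 2 and 3 and a bar for mean ± SD of 3. Sdc2 sits at 3.10 to 3.88 CPM in wild type and at 13.1 to 14.4 in ASXL1-MT-KI, Sdc4 goes the other way, and Gpc3 and Gpc4 overlap between groups.

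Gpc1 was by far the most abundant member in both genotypes. Glypican-1, which modulates FGF signalling and is the glypican most widely found outside the embryo, is encoded on chromosome 1 from 92831645 to 92860779 by a transcript of 9 exons. Its levels were 206, 169 and 212 CPM in wild type and 266, 242 and 265 CPM in ASXL1-MT-KI, from 7747 to 12789 counts per library. The groups do not overlap, and wild type library 2 was the lowest. Gpc1 rose 1.32-fold (log2 fold change 0.40 ± 0.085, edgeR adjusted p = 0.0144) and passed in every alternative setting, with an adjusted p of up to 0.0466. Ankmy1, on the opposite strand, overlaps the end of Gpc1 but held only 11 and 23 counts over the wild type and ASXL1-MT-KI libraries. The antisense genes Gm29481 and Gm29480 also overlap Gpc1 on that strand. They have no counts of their own here, and reads of the strands cannot be separated.

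Gpc2, known from developing neurons, rose by a like amount from a much lower level. It lies on chromosome 5 from 138273655 to 138280005. Values were 9.67, 10.1 and 12.5 CPM in wild type and 14.5, 14.4 and 14.7 CPM in ASXL1-MT-KI. The ASXL1-MT-KI libraries were nearly level and all above the wild type range. The log2 fold change was 0.43 ± 0.10 (1.35-fold, edgeR adjusted p = 0.0210), and it was lost on omitting wild type library 1 or 2 or knock-in library 1 or 2, with an adjusted p of up to 0.0885. Gpc2 starts 0.235 kb from Stag3 and ends 0.815 kb from Gal3st4, and a readthrough gene model, Gm43720, covers it, so its counts depend on how shared reads were assigned.

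Gpc3 and Gpc4 lie side by side on the X chromosome, 107 kb apart and on the same strand. Glypican-3 restrains growth by competing with Patched for hedgehog, and its loss causes an overgrowth syndrome, while glypican-4 takes part in Wnt and BMP signalling. Gpc3 was at 4.31, 5.04 and 6.87 CPM in wild type and 4.79, 5.07 and 5.13 CPM in the knock-in, so that the ASXL1-MT-KI values fall inside the wild type range. Its log2 fold change was -0.11 ± 0.17 (edgeR adjusted p = 0.710), and its sign changed without wild type library 3 and with numbers 1 and 2 only. The antisense genes Gm14582 and A630012P03Rik overlap Gpc3, and reads of the strands cannot be separated. Gm14582 has no counts of its own here, and A630012P03Rik held 1 count over the wild type libraries and 0 over the ASXL1-MT-KI libraries. Gpc4 was at 6.41, 4.84 and 3.03 CPM in wild type and 6.06, 7.59 and 4.34 CPM in the knock-in. Number 3 was the lowest library of both groups for Gpc4, and the groups overlap. Its log2 fold change was 0.33 ± 0.29 (edgeR adjusted p = 0.496), and 0.60 without wild type library 1 and 0.09 without wild type library 3, past the threshold in no setting. Gpc6 held 1 count over the wild type libraries and 2 over the ASXL1-MT-KI libraries, too few for any comparison.

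Of the 7 tested members other than Sdc2, 3 were called higher and 2 lower, which is 5 of 7 beside 16% of all 13548 tested genes called in either direction (8.29% higher and 7.69% lower). The members were chosen with earlier results of these data known, so the 5 of 7 is a description only. All 8 tested members, Sdc2 included, had at least 21 counts in every library, so none passed the filter on low counts through 1 group alone. With the replicate number as a block the same counts were 3 and 2, where 30.5% of all genes were called (16.7% higher and 13.8% lower). The same 5 of 7 were without overlap between the groups, as were 35.2% of all tested genes. DESeq2 and limma-voom also gave 3 and 2. Without wild type library 1 or 2, 1 was higher and 1 lower, without knock-in library 1 the rises numbered 1, and without knock-in library 2 the falls numbered 1.

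Levels of different genes were compared per length, as CPM per kb of the longest annotated transcript. In wild type, Gpc1 stood at 46.9 ± 5.61 (SD, n = 3) and made up 79.1% to 80.7% of the summed level of the 9 members. The next level was that of Gpc2 at 2.53 ± 0.36, followed by Gpc3 (2.44 ± 0.60), Gpc4 (1.80 ± 0.64), Sdc1 (1.75 ± 0.039), Sdc4 (1.53 ± 0.52), Sdc2 (0.976 ± 0.11) and Sdc3 (0.610 ± 0.093). From Gpc2 down to Sdc2, each neighbour in this order overlapped the next over the libraries, and Sdc2 and Sdc3 did not overlap. In ASXL1-MT-KI cells Sdc2 moved to the second place at 3.85 ± 0.20 CPM per kb, behind Gpc1 at 61.8 ± 3.29 and ahead of Gpc2 at 3.42 ± 0.037. That order of Sdc2 and Gpc2 turns when the longest protein-coding transcript is used, a choice made after seeing the data, which puts Gpc2 at 5.62 CPM per kb in ASXL1-MT-KI. Gpc4 and Gpc3 followed, both at 2.26, then Sdc1 at 1.18 and Sdc3 at 1.09, which overlapped, and Sdc4 at 0.285.

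Within the syndecans the composition turned over. Sdc2 made up 18.1% to 21.3% of syndecan transcripts per length in wild type libraries and 54.9% to 67.6% in ASXL1-MT-KI libraries. Sdc4 went from 22.1% to 36.1% of them to 3.08% to 6.86%, and Sdc1 from 32.5% to 42.3% to 16.4% to 20.9%. The summed syndecan level was 4.87 ± 0.57 CPM per kb in wild type and 6.41 ± 0.42 in ASXL1-MT-KI. Syndecans as a family held 8.23% to 8.42% of the level of the 9 members in wild type and 8.12% to 8.82% in ASXL1-MT-KI, ranges that overlap. These shares rest partly on Sdc2, and no test was made of them.

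**Figure D2:**
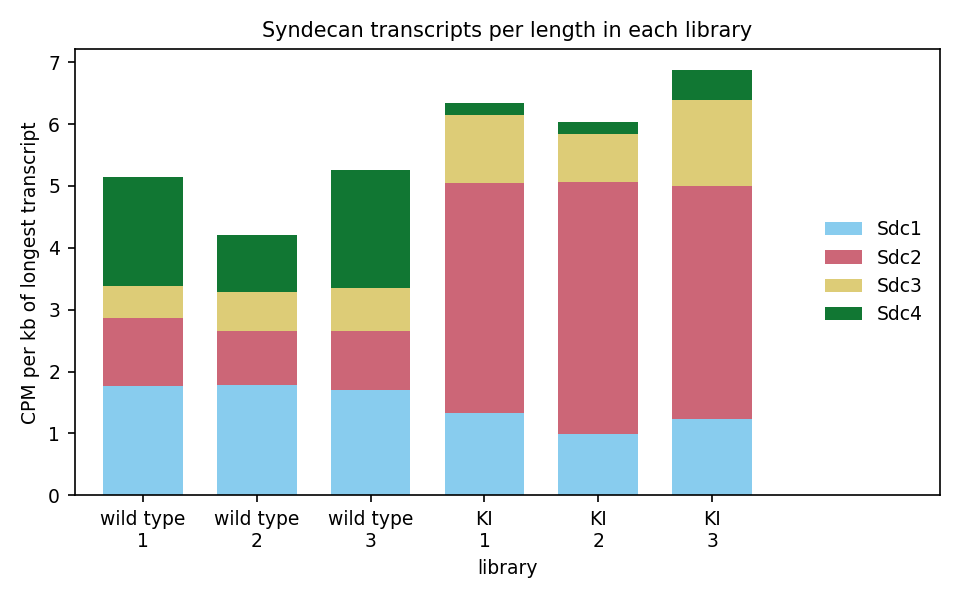
Stacked bars of the level of each syndecan gene, in CPM per kb of its longest transcript, for the 3 wild type and 3 ASXL1-MT-KI (KI) libraries. Sdc2 takes 18.1% to 21.3% of each wild type bar and 54.9% to 67.6% of each KI bar, and Sdc4 at the top shrinks to 3.08% to 6.86%.

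Genes that make and edit the heparan sulphate chain rose where they were called. In 4 lists that cover the linker, polymerisation, sulphation and editing of the chain, 10 of 41 tested genes were higher and none was lower (1 lower by unadjusted p below 0.05, 0 by DESeq2 and by limma-voom), beside 8.29% and 7.69% of all tested genes. The median log2 fold change of the 41 was 0.08, against 0.00 for all tested genes. The 10 became 2 without wild type library 1, 6 without wild type library 2 or knock-in library 3, and 3 without knock-in library 1 or 2, while none was lower in any of these. The lists were written with earlier results of these data known, and most genes in them did not pass.

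The largest rise among the chain genes was that of Sulf2, a sulphatase that removes 6-O-sulphates from finished heparan sulphate outside the cell. It was at 3.12, 2.44 and 3.23 CPM in wild type and 5.54, 7.08 and 7.04 CPM in the knock-in. The groups are well apart, with a log2 fold change of 1.16 ± 0.16 (edgeR adjusted p = 0.00147), a call kept in every alternative setting. Hgsnat, a lysosomal enzyme of heparan sulphate breakdown, rose by only 0.21, a call lost in 6 settings (without wild type library 1 or 2, without any knock-in library, and with no filter, adjusted p up to 0.194). Naglu, another lysosomal enzyme, had a log2 fold change of 0.29 (edgeR adjusted p = 0.0790), with adjusted p of 0.00567 to 0.234 over the alternatives and 0.00599 with the replicate number as a block. In all, 2 of 12 editing and degradation genes were called.

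Of 12 tested genes of the linker and its sugar supply, 4 rose. Xylt2, a xylosyltransferase that starts the chain on the core protein, went from 14.0 ± 0.96 to 18.9 ± 0.64 CPM (SD, n = 3), and its call was kept in every alternative setting. Its paralog Xylt1 was at 38.4 and 35.9 CPM and did not pass. B3galt6, which adds a galactose to the linker, went from 15.1 ± 0.76 to 19.0 ± 0.52 CPM. The kinase gene Fam20b and the phosphatase gene Pxylp1, which add and remove the phosphate on the linker xylose, both rose, by 0.20 and 0.44 on the log2 scale. Of these, the Pxylp1 call was lost on omitting wild type library 1 (adjusted p = 0.0582), and those of B3galt6 and Fam20b without wild type library 1 or knock-in library 1 or 2 (adjusted p up to 0.0624 and 0.116).

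The polymerase genes Ext1 and Ext2, which build the chain, did not pass, at 33.3 and 37.3 CPM and at 104 and 107 CPM (edgeR adjusted p = 0.541 and 0.599). For Ext1 the blocked fit gave an adjusted p of 0.0423. Number 3 was the lowest Ext1 library of both groups, at 26.6 and 30.6 CPM. Extl3, which starts the heparan sulphate chain, rose from 52.3 ± 5.0 to 63.2 ± 3.06 CPM and was the only polymerisation gene of 4 called; this was lost on omitting wild type library 1 or 3 or knock-in library 1 or 2 (adjusted p up to 0.132). Extl1 was too low to be tested.

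In the sulphation list 3 of 13 rose: Glce, the epimerase that turns glucuronic into iduronic acid (23.6 ± 3.06 to 30.3 ± 1.55 CPM), the sulphate transporter gene Slc26a2 (15.0 ± 0.76 to 18.3 ± 0.78 CPM) and Hs6st2, a 6-O-sulphotransferase (0.660 ± 0.12 to 1.16 ± 0.14 CPM). The Glce and Slc26a2 calls were lost when any of 5 libraries was dropped, wild type library 3 being the exception, and the Hs6st2 call on dropping any of the 6, with numbers 1 and 2 only and in DESeq2 (adjusted p up to 0.151). Ndst1 and Hs2st1 lay near 0, with a sign that changed between settings. Ndst1, the N-deacetylase and N-sulphotransferase that opens sulphation, was at 73.2 and 74.6 CPM, and the 2-O-sulphotransferase gene Hs2st1 at 45.8 and 45.7 CPM, with log2 fold changes of 0.03 ± 0.091 and 0.00 ± 0.058.

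**Figure D3:**
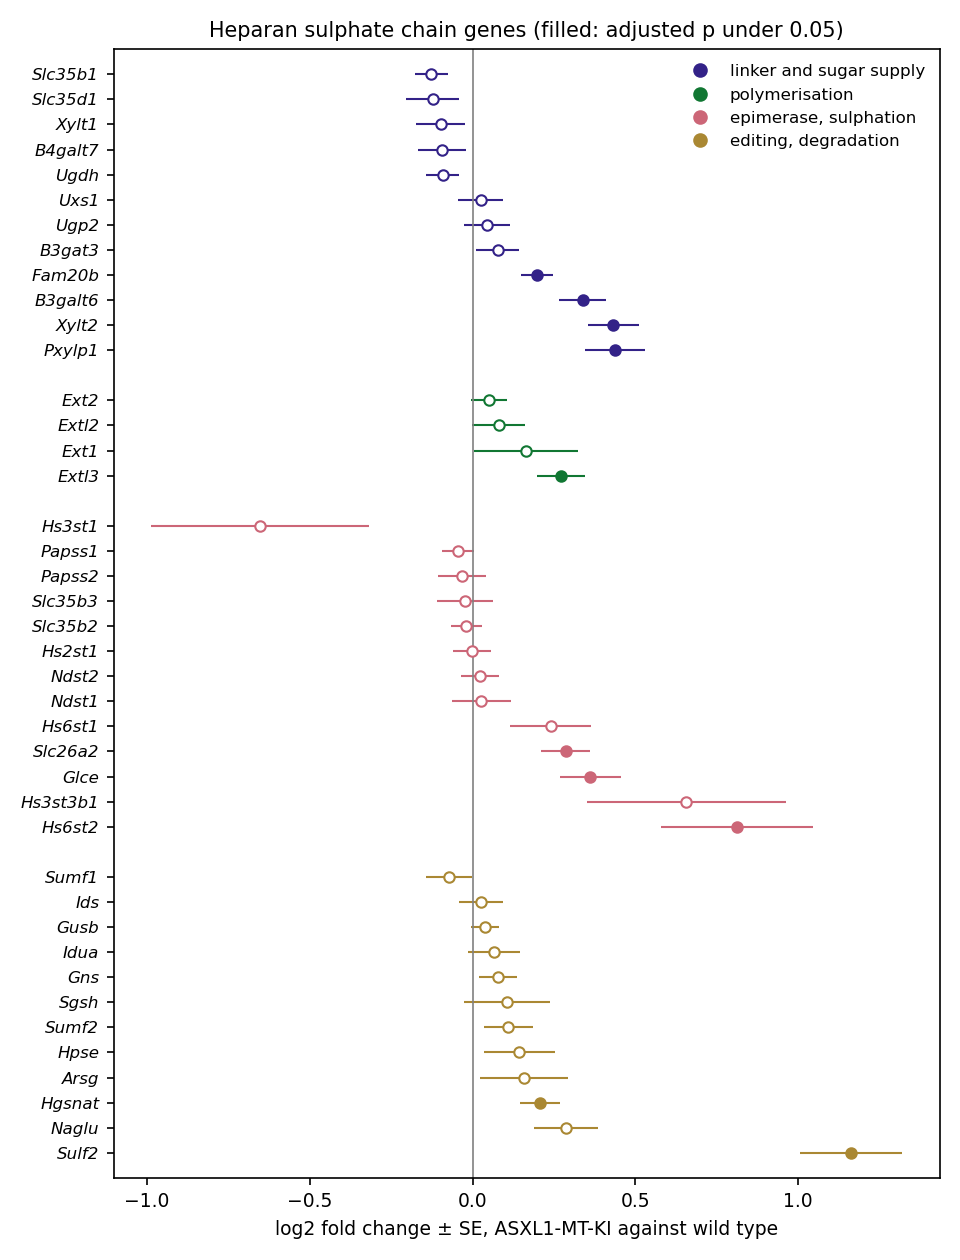
Log2 fold change ± SE, ASXL1-MT-KI against wild type, for the 41 tested heparan sulphate chain genes, coloured by step, with filled points for adjusted p under 0.05. The 10 filled points all lie to the right of 0, led by Sulf2 at 1.16, and Ndst1 and Hs2st1 lie near 0, with signs that changed between settings.

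Other proteoglycan cores did not follow 1 direction, with 2 of 11 tested genes higher and 1 lower, beside 8.29% and 7.69% of all tested genes. Agrn (agrin) rose from 23.5 ± 1.57 to 29.4 ± 1.40 CPM and Hspg2 (perlecan), a basement membrane core, from 1.04 ± 0.18 to 2.08 ± 0.60 CPM. Both calls did not survive omitting wild type library 1 or knock-in library 1, that of Agrn also without knock-in library 3 and that of Hspg2 without wild type library 2 (adjusted p up to 0.0756 and 0.0981). Cd44, a hyaluronan receptor that can carry heparan sulphate, fell from 330.6 ± 11.3 to 254.5 ± 11.3 CPM (log2 fold change -0.38, edgeR adjusted p = 0.00139). Srgn (serglycin), the granule proteoglycan of blood cells and the most abundant core in the list, was at 925 ± 80.2 and 831 ± 78.8 CPM (log2 fold change -0.15, edgeR adjusted p = 0.247) and passed only with the replicate number as a block (adjusted p = 0.00504). Nrp1 was at 22.8 and 26.4 CPM and likewise passed only with the block (adjusted p = 0.0411).

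Of 15 tested genes in the list on shedding, which also holds convertases and genes of the urokinase system, 3 were higher and 3 were lower. The shares of all tested genes were 8.29% and 7.69%. Adamts1, a metalloprotease that cleaves syndecan-4, fell from 2.19 ± 0.67 to 0.534 ± 0.16 CPM (log2 fold change -2.04 ± 0.30, edgeR adjusted p = 0.0021). Plaur, the urokinase receptor gene, fell by 1.42 on the log2 scale, and Furin, the convertase that processes glypican-3, from 142.8 ± 6.60 to 97.7 ± 3.04 CPM. Timp2, a metalloprotease inhibitor, rose from 12.5 ± 1.11 to 27.4 ± 1.40 CPM (log2 fold change 1.14 ± 0.085, edgeR adjusted p = 7.4e-05). The other risers, Mmp15 (1.05) and Plau (0.52 on the log2 scale), were named after their values were seen. The Mmp15 call was lost on omitting knock-in library 2, and that of Plau on omitting wild type library 1 or 2 or knock-in library 2 or 3. Rises numbered 1 without knock-in library 2 and 5 with the block, where 16.7% of all tested genes were called higher. The sheddase genes Adam10 and Adam17 were at 267 and 258 CPM and 93.3 and 95.0 CPM and did not pass.

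The list of cytoplasmic partners of syndecans, which also holds cytoskeletal genes such as Syne2, was mostly not called. Of its 30 tested genes 3 were higher and 3 lower, beside 8.29% and 7.69% of all tested genes. Sdcbp, the gene of syntenin, was at 264 ± 11.4 and 251 ± 4.45 CPM (edgeR adjusted p = 0.334). Src, the kinase that phosphorylates syndecan tails, rose from 2.57 ± 0.55 to 5.82 ± 0.93 CPM and Cttn (cortactin) from 32.4 ± 3.99 to 46.0 ± 1.31 CPM. Syne2, which links the nuclear envelope to actin, fell by 0.97 and the kinase gene Fyn by 0.33 on the log2 scale. Both calls did not survive omitting knock-in library 2, that of Syne2 also without knock-in library 1 and that of Fyn without wild type library 1 (adjusted p up to 0.0559 and 0.0676). Actn1 (0.45) and Msn (-0.16), the remaining calls, were named after their values were seen and were lost when most single libraries were left out. With the block 5 were higher and 8 lower, where 16.7% and 13.8% of all tested genes were called. Without wild type library 1 or knock-in library 1 the falls numbered 1, without knock-in library 2 there were 0, and without wild type library 3 the rises numbered 5.

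In the GPI anchor pathway, which glypicans need, 2 of 26 genes rose (Piga by 0.26 and Pigv by 0.30) and none fell. Of all tested genes 8.29% were called higher and 7.69% lower. Neither DESeq2 nor limma-voom called a fall, and 0 fell by unadjusted p below 0.05. With the block 6 rose, among them Pigg and Pigq, where 16.7% of all tested genes were called higher. Without wild type library 1 or knock-in library 1 or 2 none rose, although Piga and Pigv kept their sign, and the Pigv call was also lost on omitting wild type library 2 or knock-in library 3 and in limma-voom.

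Ligands that bind heparan sulphate were the list with the most falls. Of 27 tested, 9 were lower and 1 was higher, beside 7.69% and 8.29% of all tested genes. The median log2 fold change was -0.28. Vegfa went from 219, 182 and 176 CPM in wild type to 111, 89.1 and 107 CPM (log2 fold change -0.91 ± 0.11, edgeR adjusted p = 0.00125). Wnt10b fell from 2.96 ± 0.73 to 0.643 ± 0.28 CPM and Tgfb1 from 436.0 ± 3.59 to 360.0 ± 14.3 CPM. The growth factor genes Hgf and Hbegf, named after their values were seen, both fell by 0.55 on the log2 scale, calls lost on omitting wild type library 1 and, for Hbegf, also knock-in library 2. The gene that rose was Fn1 (fibronectin), a matrix ligand that syndecans and integrins bind together, at 10.04, 9.49 and 7.69 CPM in wild type and 20.5, 28.3 and 21.8 CPM in ASXL1-MT-KI (log2 fold change 1.37 ± 0.14, edgeR adjusted p = 0.000534). Falls numbered 5 without wild type library 1.

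Of 39 tested receptors that work with these proteoglycans 4 were higher and 4 lower, beside 8.29% and 7.69% of all tested genes. Ptprf, a receptor phosphatase of the LAR family whose members bind heparan sulphate chains and glypicans, went from 1.98, 1.88 and 1.95 CPM to 24.7, 20.7 and 26.3 CPM (log2 fold change 3.62 ± 0.12, edgeR adjusted p = 3.7e-07). Its relative Ptprs was at 216 and 228 CPM and did not pass. Smo, the hedgehog signal transducer, rose from 77.5 ± 0.73 to 113.8 ± 4.49 CPM. Fgfr1, whose ligands need heparan sulphate, fell from 6.58, 5.47 and 4.56 CPM to 1.98, 1.77 and 2.34 CPM (log2 fold change -1.45 ± 0.18, edgeR adjusted p = 0.000896), and Cxcr4, the receptor of the heparan sulphate-binding chemokine Cxcl12, from 146.9 ± 5.22 to 100.8 ± 4.21 CPM. Named after their values were seen, Itgb5 and Fzd7 rose by 0.30 and 0.29 and Tgfbr2 and Bmpr2 fell by 0.64 and 0.34 on the log2 scale. Of these, Tgfbr2 alone passed in every alternative setting. The Bmpr2 call was lost on omitting knock-in library 1, that of Itgb5 on omitting wild type library 1 or any knock-in library or with numbers 1 and 2 only, and that of Fzd7 on omitting library 1 or 2 of either group. Rises numbered 2 without wild type library 1 or knock-in library 1 or 2. The syndecan-4 partner integrins Itgb1 and Itga5 were at 302 and 289 CPM and at 73.1 and 80.0 CPM and did not pass.

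**Figure D4:**
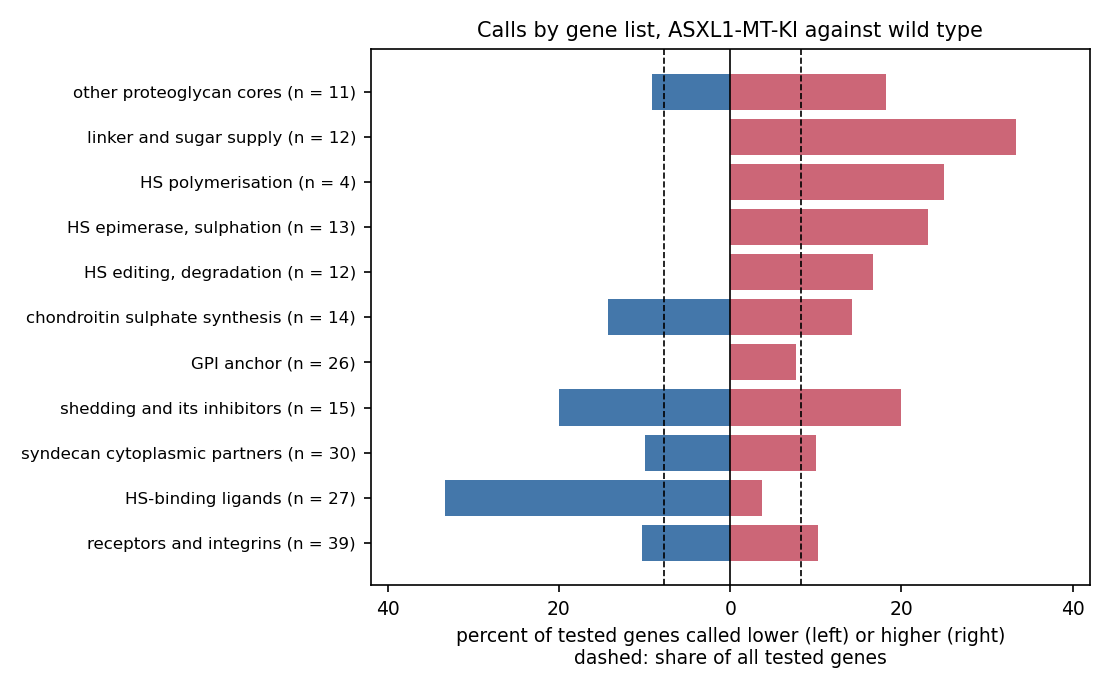
Percent of the tested genes of each list called higher (red, right) or lower (blue, left) in ASXL1-MT-KI (HS, heparan sulphate), with n tested beside each name and dashed lines at the shares of all tested genes, 8.29% and 7.69%. The 4 HS chain lists extend to the right only and the ligand list mostly to the left, while the receptor and partner lists lie near the dashed lines on both sides.

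Markers of cells that could contribute syndecan or glypican transcripts were read beside the members. Of 20 stromal and bone-forming markers 7 were tested, 1 was higher and 2 were lower, with a summed level of 172 to 212 CPM in wild type and 143 to 175 CPM in ASXL1-MT-KI. Col3a1 was at 0 in all libraries, Lepr and Kitl averaged at most 0.105 CPM in either group, and most of the sum is Runx2, which progenitors express as well, with Pdgfrb and Vcam1. Of 13 tested endothelial genes 1 was higher and 3 were lower, at 391 to 418 and 362 to 418 CPM in all. Cdh5, an endothelial gene named after its value was seen, averaged 0.284 and 0.151 CPM. Nearly all of the sum therefore lies in other genes of the list, which are not named here. For macrophage genes 0 of 12 passed in edgeR (3 higher by unadjusted p below 0.05, 1 by DESeq2, 0 by limma-voom and 7 with the block). Their median log2 fold change was 0.66, with 10 above 0 and 2 below, and the sums were 200 to 233 and 226 to 261 CPM. Megakaryocyte genes, with 1 of 14 higher and 4 lower, summed to 360 to 410 and 303 to 388 CPM. In the mast cell list 0 of 7 passed in edgeR (2 lower by unadjusted p, by DESeq2 and by limma-voom, 5 with the block), Mrgprb1 and Mrgprb2 were at 0 in all libraries, and the sums, mostly Srgn, were 1072 to 1301 and 936 to 1174 CPM. Of all tested genes 8.29% were called higher and 7.69% lower, and 16.7% and 13.8% with the block. The part of these cells in the member results was not tested.

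Of 30 tested protein-coding genes among the nearest 3 on each side of the members, 5 were higher and 2 lower, beside 8.29% and 7.69% of all tested genes. Cpq, 48.2 kb beyond Sdc2, was at 29.9 and 26.9 CPM and did not pass, Sema5a on the other side was too low to be tested, and Tspyl5, 649 kb away, rose from 0.299 ± 0.10 to 0.776 ± 0.23 CPM, a call lost on omitting wild type library 2 or 3 or knock-in library 1 or 2 (adjusted p up to 0.0974). Next to Sdc4, Sys1 (46.1 and 45.6 CPM) and Slpi (65.0 and 66.8 CPM) did not pass. Laptm5, 86.8 kb from Sdc3, fell by 0.20 on the log2 scale while Sdc3 rose. Its call was lost with total counts as the scaling and on omitting any library other than wild type library 1 (adjusted p up to 0.131). Further out, Ptpru rose by 0.62. Near Gpc1, Rnpepl1 rose by 0.28, and near Gpc2, BC037034 by 0.55. Hs6st2, described above, is the third gene before Gpc4 on the X chromosome, 371 kb away.

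The 5 tested genes whose profile over the 6 libraries was most like that of Sdc2, by Euclidean distance between log2 CPM values centred on their mean, were Kirrel, Angptl2, Vash2, Wfikkn2 and Ptprm, at distances of 0.218 to 0.344. Angptl2, a secreted angiopoietin-like protein, had 131, 115 and 105 counts in wild type and 452, 459 and 462 in ASXL1-MT-KI. Log2 fold changes of the 5 were 1.83 to 2.07. With 2 groups of libraries, such likeness is mostly the shared difference between genotypes.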

How the data were processed

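The members and gene lists were chosen with earlier results of these data known. The labels' protocols give 200 ng of RNA as input, a NEB Next Ultra RNA kit, which in its standard form does not keep the strand, and paired reads of 124 bp. HISAT2 2.0.4 and mm10 are named in the submitters' processing notes. The authors deposited raw counts per gene symbol. The counting tool, not given in the sources used here, sets how shared reads were treated. Of the 24421 rows, 6240 were 0 throughout.

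Genotypes were compared with edgeR 4.0.16 in R 4.3.3: filterByExpr (minimum count 10), TMM scaling (0.972 to 1.03), the robust quasi-likelihood F test and Benjamini-Hochberg adjustment over 13548 genes, called at 0.05. A standard error is the log2 fold change over the root of its F value. The code was tested on simulated data. Lengths and positions come from GENCODE M21, promoters from RefSeq GRCm38.p6. The rule for naming took all members, up to 4 genes per list by lowest p, 6 leading genes of their step, the top 3 and the absent markers of each cell type, flanking genes and the 5 genes most like Sdc2. Named outside it, after values were seen, were Kit, Cd3e, Tnfrsf17, called markers, Lepr, Kitl, Cdh5, Xylt1, Adam10, Adam17, Ptprs, Itgb1, Itga5, Csgalnact2, Extl1 and those marked in the text. The rule was not carried through for all markers. The endothelial, macrophage and megakaryocyte lists, among others, are given by sums and counts without their top 3. The values of 1 flanking gene are not reported here. Alternatives were a replicate block, other scaling (DESeq2 size factors, total counts), DESeq2 1.42.0, limma-voom (limma 3.58.1), 2 other filters, leaving out each library, numbers 1 and 2 only, an adjusted p under 0.10 and other transcript lengths. Figures used matplotlib 3.10.9.

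The sample titles carry the replicate numbers, and no label says that they mark litters. Deviations from the group mean correlated across genes at 0.253, 0.162 and 0.391 between same-numbered libraries. Wild type 2 correlated as well with ASXL1-MT-KI 1 (0.163). The main comparison was by genotype only and did not pair the libraries. The replicate number entered as a block only among the alternatives.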

Additional observations from a re-analysis of the deposited data

How the results depend on the processing

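Over 14 alternative settings, 99 of 112 member log2 fold changes kept their direction and their side of the threshold (for Sdc2, stayed within the spread of libraries). The 11 that lost the call belong to Sdc1, Sdc3 and Gpc2, each on leaving out 1 library. On leaving out 1 library the members called apart from Sdc2 numbered 1 to 3 higher and 1 to 2 lower, and the heparan sulphate chain genes called higher 2 to 9. These fits have fewer libraries, so fewer genes pass in all. With the replicate block, where 16.7% of all tested genes were called higher, the chain genes called higher numbered 13. No call of a member changed with the block. The Gpc3 log2 fold change was 0.0763 with numbers 1 and 2 only and ran from -0.251 to 0.0953 on leaving out 1 library, positive without wild type replicate 3. Among the other named genes, signs turned for values near 0. Hs2st1 was at 0.0509 with total counts and at 0.00253 with the filter at CPM 1. On leaving out 1 library, Hs2st1 ran from -0.0375 to 0.0222, Ext2 from -0.00326 to 0.0738 and Ndst1 from -0.0414 to 0.131. The cause of these shifts was not tested. Levels per length moved with the transcript chosen, for Gpc2 from 2.53 to 4.16 CPM per kb in wild type and from 3.42 to 5.62 in ASXL1-MT-KI with the longest protein-coding transcript. Depth limits Gpc6, which could not be compared, and the low Sdc4 counts in ASXL1-MT-KI.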

Other observations

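Chondroitin sulphate shares its linker with heparan sulphate, and syndecans can carry both. Of 14 tested genes of its synthesis 2 were higher and 2 lower in ASXL1-MT-KI, beside 8.29% and 7.69% of all tested genes. Dse, the epimerase that makes dermatan sulphate, fell from 1.23 ± 0.042 to 0.603 ± 0.042 CPM (log2 fold change -1.03, edgeR adjusted p = 0.00968), and Csgalnact1, which starts the chondroitin chain, from 10.4 ± 0.87 to 7.85 ± 0.43 CPM. Chpf, a chain polymerising factor, rose by 0.60 and the dermatan sulphotransferase gene Chst14 by 0.54 on the log2 scale. The calls of Chpf, Chst14 and Csgalnact1 were lost on omitting wild type library 1 or knock-in library 2, and those of Chpf and Csgalnact1 also without knock-in library 1. The most abundant gene of the list, Csgalnact2, was at 248.6 and 258.3 CPM and did not pass.

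Gpc5, a neighbour of Gpc6 on chromosome 14, held 2 counts over the libraries of each genotype.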
